A study of Mus musculus with 5 samples.

Results

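The genes described here are 35 mouse genes of the cornified envelope and of squamous differentiation, read in colon tumors. They were chosen by name, and each of the 35 symbols matched 1 entry among the 52143 entries of the deposited table. They comprise 14 small proline-rich protein genes (Sprr1a, Sprr1b, 10 Sprr2 genes, Sprr3 and Sprr4), Lor and Ivl, 6 genes of the S100-fused family (Flg, Flg2, Hrnr, Rptn, Crnn and Tchh), 5 keratins of suprabasal layers (Krt1, Krt4, Krt10, Krt13 and Krt78), the transglutaminases Tgm1 and Tgm3, and 6 secreted or surface proteins of differentiated squamous cells (Krtdap, Sbsn, Dmkn, Cdsn, Cnfn and Lypd3). On the mouse genome build GRCm38, 22 of the 35 lay in 1 stretch of chromosome 3, from position 92080271 to 93449077, which is part of the epidermal differentiation complex.

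In stratified squamous epithelia, such as skin, esophagus and the anal canal, cells leave a basal layer that makes Krt5 and Krt14, switch to other keratins, and finally build a cornified envelope under the plasma membrane. Precursor proteins such as involucrin, loricrin and the small proline-rich proteins are cross-linked into that envelope by transglutaminases, while filaggrin and its relatives fill the dying cells of skin. The colon is lined by a columnar epithelium that does not cornify, although Sprr2a is also known from intestinal epithelium responding to microbes and injury.

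The tumors came from female mice that were 8 weeks old when treatment began. Control mice carried the Villin1-Cre-ERT transgene, in which the Villin1 promoter drives a tamoxifen-inducible recombinase in intestinal epithelium. The SIGLEC12 mice carried the same transgene and 1 allele of human SIGLEC12, knocked into the ROSA26 locus behind a CAG promoter and a removable EGFP stop cassette, which encodes Siglec-XII, a lectin-like receptor of epithelial cells. All mice of both groups received tamoxifen for 5 days, 1 injection of the carcinogen azoxymethane (AOM) at 10 mg/kg and 4 cycles of 2.0% dextran sulfate sodium (DSS), an agent that causes colitis, and tumors were taken on day 87. The Control group had 2 samples (replicates 1 and 4) and the SIGLEC12 group 3 samples (replicates 2, 3 and 4), and the human transgene itself was not analysed here. The comparison asks whether the squamous genes differed between tumors with and without Siglec-XII. Tumors are mixed tissue, so fewer cells of a type and less RNA per cell cannot be told apart.

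Levels are given in TPM, a measure of transcript abundance per transcript length, relative to all RNA of a sample. Differences are log2 fold changes, SIGLEC12 minus Control, on the scale log2(TPM + 1). A gene was tested with limma if it reached 1 TPM in at least 2 samples, which held for 10338 genes and for 26 of the 35 members. Protein-coding genes held only 5.70% and 6.73% of TPM in the Control samples, and 8.85%, 8.75% and 9.72% in the SIGLEC12 samples. For that reason each difference was also computed after rescaling each sample to its protein-coding total. As deposited, the median difference over all genes tested was 0.38, and after rescaling it was 0.01.

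Control replicate 1 stood apart from the other 4 samples, and this touches most of what follows. Of all genes tested, 70.8% were lowest in that sample and 5.58% were highest. Of the 26 members tested, 11 were lowest there and 10 were highest. The basal and stress squamous keratins, a list of 10 genes of which 8 were tested, summed to 3405 TPM in Control replicate 1 and to 300.8 TPM in Control replicate 4, against 525, 187 and 258 TPM in the SIGLEC12 samples. A list of 8 basal squamous markers, all 8 of which were tested, summed to 1893 TPM in Control replicate 1 and to between 157 and 389 TPM in the other samples. Markers of columnar epithelium, of which 13 of 14 were tested, summed to 437 TPM in Control replicate 1 and to between 1307 and 2078 TPM elsewhere, so the labelled tissue was represented in all 5 samples. Of the columnar markers Cdx2, a transcription factor of intestinal identity, was low, between 0.137 and 3.11 TPM. Hair follicle and skin gland markers, of which 2 of 8 were tested, summed to 0.0753 and 1.53 TPM in the Control samples. In the SIGLEC12 samples they summed to 8.01, 4.75 and 4.50 TPM. Fibroblast markers summed to 10.9 and 18.0 TPM in the Control samples and to 73.3, 27.3 and 31.9 TPM in the SIGLEC12 samples. In the same order, myeloid markers summed to 12.5 and 5.96 TPM, and to 25.1, 29.4 and 7.29 TPM. Neutrophil markers summed to 21.6 and 25.1 TPM, and to 24.6, 44.7 and 53.6 TPM. Endothelial markers summed to 1.04 and 1.05 TPM, and to 4.81, 2.12 and 2.86 TPM. Smooth muscle markers summed to between 51.9 and 128 TPM. No marker of endothelium, T cells or B and plasma cells passed the filter. As deposited, 54.1% of all genes tested were higher in every SIGLEC12 sample than in either Control sample. The part these markers had in the results was not tested. Values without Control replicate 1 are given beside some results only, so a result without one may also rest on that sample. For members whose sign turned with 1 sample left out, the range of values is given at the end.

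Taken as a set, the 35 members made up 2.88% and 3.27% of protein-coding TPM in the Control samples and 2.79%, 2.18% and 2.203% in the SIGLEC12 samples. The SIGLEC12 shares were all below the Control shares, with a gap to SIGLEC12 replicate 2 that was small next to the spread within either group. By mean TPM over the 5 samples, Sprr2a2 ranked 4 among 21831 protein-coding genes, Krt13 ranked 28 and Sprr1a ranked 36. Of the 35 members, 18 reached 1 TPM in all 5 samples, 5 reached it in 1 sample only, and 4 reached it in none. The plot of levels by role shows that this abundance was carried by few genes.

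**Figure D1:**
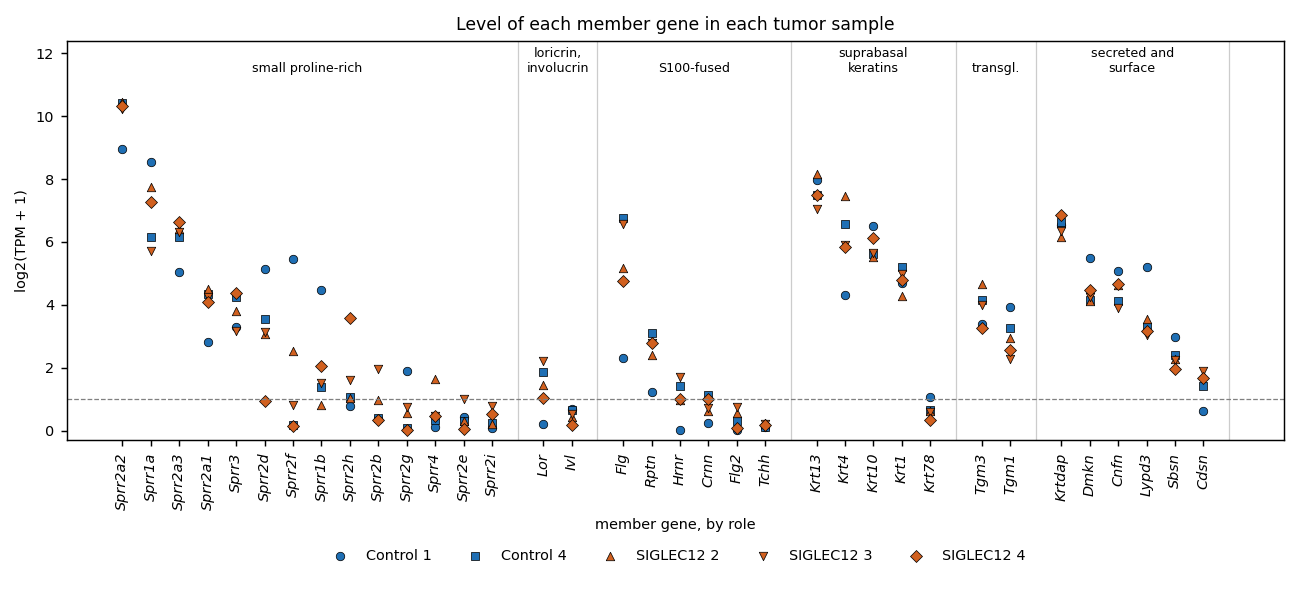
Level of each of the 35 members on the log2(TPM + 1) axis, grouped by role, with 1 point per tumor sample (blue, Control replicates 1 and 4; orange, SIGLEC12 replicates 2, 3 and 4) and a dashed line at 1 TPM. Sprr2a2, Krt13 and Sprr1a, the 3 members with a mean of at least 100 TPM, stand at the top of their groups. The Control replicate 1 circle is often at an end of its column, as that sample was for 76.3% of all genes tested.

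The sequence upstream of the members was read first, because many of these genes sit side by side and share features there. RefSeq windows of 250 bases before the transcription start (GRCm38.p6) were found for 32 of the 35 members, all but Krt1, Krt4 and Sprr2g. A gene with several windows was counted once, if any of them held the motif. The motif TGANTCA includes the core bound by AP-1 factors, TGAGTCA or TGACTCA, and also matches A or T at its center. It reads alike on both strands, and was present for 18 of the 32 members (56.2%) and for 7.82% of 27025 genes. TATAAA, searched on both strands and the core of the TATA box, was also present for 18 of the 32 members (56.2%), against 14.3% of all genes. CACCC, searched on both strands and the core bound by many Krüppel-like factors, was present for 19 of the 32 members (59.4%), against 54.5% of all genes. In the windows printed here the marked motifs do not overlap, and a match describes the window without showing that it is bound. Neighbouring Sprr2 genes are copies of one another, so their windows are not independent of each other.

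Printed here are the windows of Sprr2d, Sprr2e, Sprr1b, Flg and Krtdap, those of Sprr2d and Sprr2e because they are nearly alike while their levels were not, and those of Sprr1b, Flg and Krtdap because they stand for the 3 behaviours across samples described below. Capitals mark TGANTCA and TATAAA.
Sprr2d, chr3:92338890-92339139, plus strand: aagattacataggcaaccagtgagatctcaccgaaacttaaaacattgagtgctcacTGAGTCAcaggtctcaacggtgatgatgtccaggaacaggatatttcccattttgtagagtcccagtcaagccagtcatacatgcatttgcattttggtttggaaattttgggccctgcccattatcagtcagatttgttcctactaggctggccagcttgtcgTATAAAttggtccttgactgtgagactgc
Sprr2e, chr3:92351893-92352142, plus strand: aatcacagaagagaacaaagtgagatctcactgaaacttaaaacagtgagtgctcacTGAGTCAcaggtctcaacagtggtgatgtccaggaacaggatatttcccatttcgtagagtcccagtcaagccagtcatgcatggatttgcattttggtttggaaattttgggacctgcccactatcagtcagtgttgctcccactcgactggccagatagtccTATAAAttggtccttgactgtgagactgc
Sprr1b, chr3:92438780-92439029, minus strand: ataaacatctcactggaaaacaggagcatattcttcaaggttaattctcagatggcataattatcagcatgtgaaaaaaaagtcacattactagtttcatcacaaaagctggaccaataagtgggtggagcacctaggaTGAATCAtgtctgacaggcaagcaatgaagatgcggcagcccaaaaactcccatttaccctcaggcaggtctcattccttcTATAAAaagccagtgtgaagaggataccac
Flg, chr3:93273296-93273545, plus strand: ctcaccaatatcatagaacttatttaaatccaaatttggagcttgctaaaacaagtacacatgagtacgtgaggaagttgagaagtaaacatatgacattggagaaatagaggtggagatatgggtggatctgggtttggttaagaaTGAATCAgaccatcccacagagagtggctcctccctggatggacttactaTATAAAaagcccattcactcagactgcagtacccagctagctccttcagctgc
Krtdap, chr7:30787655-30787904, plus strand: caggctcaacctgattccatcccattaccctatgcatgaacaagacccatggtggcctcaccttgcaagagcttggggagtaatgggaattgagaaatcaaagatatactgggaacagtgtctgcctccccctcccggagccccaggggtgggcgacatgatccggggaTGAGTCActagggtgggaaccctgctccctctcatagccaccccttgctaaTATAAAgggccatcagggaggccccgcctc

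The Sprr2d and Sprr2e windows were identical at 88% of their 250 bases, and both held TGAGTCA at 193 bases and TATAAA at 29 bases before the start. Their genes nevertheless differed in level. Sprr2d was at 34.6 and 10.8 TPM in the Control samples and at 7.51, 7.79 and 0.933 TPM in the SIGLEC12 samples. Sprr2e was at 0.357 and 0.225 TPM in the Control samples and at 0.235, 1.02 and 0.0365 TPM in the SIGLEC12 samples, below Sprr2d in every sample. In Sprr1b the TGANTCA motif began 111 bases before the start, in Flg 103 bases and in Krtdap 81 bases. Its center base was A in Sprr1b and Flg (TGAATCA) and G in Krtdap (TGAGTCA). For Sprr1b, Flg and Krtdap this RefSeq start did not match that of the transcript named in the deposited data. The last bases of each of these windows lie within the gene as GENCODE places it. Among members not printed, no window of Sprr1a, Sprr2a1, Sprr2a2, Sprr2a3, Sprr2b, Tgm3, Flg2, Lypd3 or Cnfn matched that start either. The motif shares above include them.

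The small proline-rich genes also share sequence within their transcripts, which limits how their reads can be split. Their coding sequences are built of short proline-rich repeats, and proline codons (CCN) made up between 17.1% and 42.6% of codons in those with a complete coding sequence, against a median of 5.20% over 17672 coding sequences. Of the 31-base words in Sprr2a2 transcripts, 97.8% also occurred in Sprr2a1, and GENCODE places the Sprr2a2 gene (chromosome 3, 92215920 to 92256724, plus strand) across most of Sprr2a1 (92215799 to 92221911, plus strand). For Sprr2a3 73.6% of such words occurred in other genes, for Sprr2b 31.9%, for Sprr2i 22.7% and for Sprr2e 21.1%. The division of reads among Sprr2a1, Sprr2a2 and Sprr2a3 is therefore uncertain, and their sum is the firmer value. Of the 35 members, 14 shared no such word with any other gene, Sprr1a and Sprr1b among them.

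The 3 Sprr2a genes together were at 530.3 and 1448 TPM in the Control samples and at 1492, 1304 and 1397 TPM in the SIGLEC12 samples. Control replicate 1 alone was low, and Control replicate 4 lay within the range of the SIGLEC12 samples. The log2 ratio of the group means was 0.50 as deposited and -0.002 once samples were set to equal protein-coding totals.

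With that limit, the separate entries were as follows. Sprr2a2 was listed at 492 and 1359 TPM in the Control samples and at 1386, 1207 and 1281 TPM in the SIGLEC12 samples. Sprr2a1 was listed at 5.99 and 19.3 TPM in the Control samples and at 21.95, 18.0 and 16.2 TPM in the SIGLEC12 samples. In both, the groups overlapped, and the log2 fold changes were 0.66 ± 0.42 (SE) for Sprr2a2 and 0.72 ± 0.45 (SE) for Sprr2a1. Without Control replicate 1 they were -0.075 for Sprr2a2 and -0.050 for Sprr2a1. Sprr2a3 was listed at 32.4 and 70.2 TPM in the Control samples and at 83.3, 79.4 and 99.5 TPM in the SIGLEC12 samples. All SIGLEC12 values of Sprr2a3 lay above both Control values as deposited, with a log2 fold change of 0.85 ± 0.36 (SE) and a limma adjusted p of 0.149, and they overlapped after rescaling, where the fold change was 0.31.

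Sprr1a, an envelope precursor also induced in injured tissue, was the most abundant small proline-rich gene outside the Sprr2a group. It was at 369.5 and 70.6 TPM in the Control samples and at 216, 51.3 and 152 TPM in the SIGLEC12 samples. The SIGLEC12 samples spread over a wider range than the distance between the group means, and the log2 fold change was -0.44 ± 0.84 (SE), with a 95% interval from -2.46 to 1.58.

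Its paralog Sprr1b was at 21.3 and 1.61 TPM in the Control samples and at 0.755, 1.83 and 3.16 TPM in the SIGLEC12 samples, so Control replicate 1 was well above the other 4. Sprr2f, a member also known from the uterus, was at 43.1 and 0.138 TPM in the Control samples and at 4.77, 0.764 and 0.120 TPM in the SIGLEC12 samples. Control replicate 1 thus had the highest Sprr2f value, Control replicate 4 lay near the lowest, that of SIGLEC12 replicate 4, and its log2 fold change was -1.66 ± 1.48 (SE). Without Control replicate 1 the fold changes turned to 0.07 for Sprr1b, 0.98 for Sprr2f and 0.75 for Sprr1a.

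Sprr2d, whose values were given with its upstream sequence, was lower in every SIGLEC12 sample than in either Control sample. Its log2 fold change was -1.96 ± 0.77 (SE), with a 95% interval from -3.82 to -0.11 and a limma Benjamini-Hochberg adjusted p of 0.132. Without Control replicate 1 it was -1.16, and after rescaling it was -2.44. Of its 31-base words 10.3% occurred in other genes, so a small share of its reads could belong to its paralogs.

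Sprr3, an envelope precursor typical of esophagus and other internal squamous linings, did not separate the groups. It was at 8.88 and 18.2 TPM in the Control samples and at 12.9, 8.02 and 20.0 TPM in the SIGLEC12 samples. The log2 fold change of Sprr3 was 0.00 ± 0.44 (SE) as deposited, against -0.51 when rescaled. Sprr2h was at 0.724 and 1.12 TPM in the Control samples and at 1.05, 2.09 and 10.9 TPM in the SIGLEC12 samples, with 1 high value, that of SIGLEC12 replicate 4.

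The remaining small proline-rich genes were not tested. Sprr2b reached 2.93 TPM in SIGLEC12 replicate 3 and was at 0.301, 0.326, 0.950 and 0.265 TPM in Control replicates 1 and 4 and SIGLEC12 replicates 2 and 4. Sprr2g reached 2.72 TPM in Control replicate 1 and was at 0.0698 TPM in Control replicate 4 and 0.466, 0.678 and 0.0181 TPM in the SIGLEC12 samples. Sprr4 reached 2.11 TPM in SIGLEC12 replicate 2 and was at 0.0902 and 0.255 TPM in the Control samples and 0.390 and 0.387 TPM in SIGLEC12 replicates 3 and 4. Each of these 3 low genes thus had 1 sample above 1 TPM, and a different one.

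Summed over all 14 small proline-rich genes, the level was 1012 and 1552 TPM in the Control samples (1282 ± 382, SD, n = 2) and 1738, 1382 and 1585 TPM in the SIGLEC12 samples (1568 ± 179, SD, n = 3). The groups overlapped, and the ratio of SIGLEC12 to Control was 1.22 as deposited and 0.846 after rescaling. The makeup of the sum also differed between samples. Sprr2a2 held 48.6% of it in Control replicate 1 and between 79.8% and 87.6% in the other 4 samples. The small proline-rich genes other than the 3 Sprr2a genes summed to 482 TPM in Control replicate 1 and 104 TPM in Control replicate 4, and to 247, 77.5 and 188 TPM in the SIGLEC12 samples.

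Loricrin, the glycine-rich main precursor of the skin envelope (Lor, with glycine codons at 55.3% of its coding sequence against a median of 5.97%), was at most 3.65 TPM. It was at 0.160 and 2.68 TPM in the Control samples and at 1.76, 3.65 and 1.04 TPM in the SIGLEC12 samples, with overlapping groups. The log2 fold change of Lor was 0.52, and -0.31 without Control replicate 1. Ivl, which encodes the early envelope precursor involucrin, reached 1 TPM in no sample, nor did Flg2, Tchh or Sprr2i. Over the 5 samples these 4 genes ranged from 0.00428 to 0.710 TPM. Summed, Lor and Ivl were at 0.780 and 3.26 TPM in the Control samples and at 2.10, 4.08 and 1.17 TPM in the SIGLEC12 samples, against at least 1012 TPM for the small proline-rich genes in each sample.

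The S100-fused genes, which encode large repeat proteins of the skin and oral surface, were low in the sample in which Sprr1b was high. Flg, encoding filaggrin, which bundles keratin filaments in the outer skin, was at 3.97 and 107 TPM in the Control samples and at 35.1, 94.8 and 26.0 TPM in the SIGLEC12 samples. The 2 Control samples held the lowest and the highest Flg value, and the log2 fold change of 0.97 ± 1.25 (SE) had a 95% interval from -2.03 to 3.96. Without Control replicate 1 it was -1.25, so its sign rests on that sample.

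Rptn, encoding repetin, was at 1.36 and 7.57 TPM in the Control samples and at 4.30, 5.98 and 5.97 TPM in the SIGLEC12 samples. Hrnr, encoding hornerin, was at 0.0112 and 1.65 TPM in the Control samples and at 0.965, 2.26 and 1.01 TPM in the SIGLEC12 samples. Crnn, encoding cornulin of the esophageal surface, was at 0.191 and 1.18 TPM in the Control samples and at 0.549, 0.646 and 1.02 TPM in the SIGLEC12 samples. All 3 were lowest in Control replicate 1, as Flg and Lor were, and all 3 had a log2 fold change above 0 with both Control samples and below 0 without Control replicate 1. Crnn was also below 0, at -0.09, after rescaling. Summed, the 6 S100-fused genes were at 5.61 and 118 TPM in the Control samples and at 41.6, 105 and 34.2 TPM in the SIGLEC12 samples.

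The suprabasal keratins mark cells that have left the basal layer. Krt13, a keratin of internal stratified epithelia that pairs with Krt4, was at 253 and 179 TPM in the Control samples and at 286, 131 and 181 TPM in the SIGLEC12 samples. Krt4 was at 18.8 and 93.6 TPM in the Control samples and at 174, 59.4 and 56.6 TPM in the SIGLEC12 samples. Both were highest in SIGLEC12 replicate 2, whereas Control replicate 1 was the lowest for Krt4 and the second highest for Krt13.

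Krt10, a keratin of suprabasal skin that pairs with Krt1, was at 90.4 and 48.6 TPM in the Control samples and at 45.0, 49.8 and 68.96 TPM in the SIGLEC12 samples. Krt1 was at 24.7 and 36.2 TPM in the Control samples and at 18.5, 30.7 and 26.5 TPM in the SIGLEC12 samples. As deposited no keratin of either pair passed the test, with log2 fold changes of -0.17 for Krt13, 0.97 for Krt4, -0.30 for Krt10 and -0.27 for Krt1, all with overlapping groups. Without Control replicate 1 they were -0.16 for Krt4, 0.14 for Krt10 and -0.53 for Krt1, and that of Krt13 turned above 0. Krt78, a further suprabasal keratin that was not tested, was at 1.12 and 0.564 TPM in the Control samples and at 0.558, 0.494 and 0.263 TPM in the SIGLEC12 samples.

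Set against the basal keratins, both pairs of suprabasal keratins were lowest in Control replicate 1, and next lowest in SIGLEC12 replicate 2. These ratios were chosen after their values were seen and carry no test. The sum of Krt1 and Krt10 over the sum of Krt5 and Krt14 was 0.0662 in Control replicate 1 and 0.482 in Control replicate 4, and 0.186, 0.669 and 0.667 in the SIGLEC12 samples. The sum of Krt4 and Krt13 over the same basal pair was 0.156 in Control replicate 1, 1.55 in Control replicate 4, and 1.35, 1.59 and 1.66 in the SIGLEC12 samples. The TPM ratio of Flg to Sprr1a was 0.0107 in Control replicate 1, 1.52 in Control replicate 4, and 0.163, 1.85 and 0.171 in the SIGLEC12 samples.

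Tgm1, which encodes a membrane-bound transglutaminase that attaches precursors to the envelope, was at 14.2 and 8.69 TPM in the Control samples and at 6.73, 3.86 and 4.91 TPM in the SIGLEC12 samples. Every SIGLEC12 value lay below both Control values. The log2 fold change was -1.002 ± 0.29 (SE), with a 95% interval from -1.70 to -0.30 and a limma Benjamini-Hochberg adjusted p of 0.0988, the smallest among the members. It was -0.68 without Control replicate 1 and -1.50 after rescaling, where the adjusted p was 0.457 and the groups again did not overlap.

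Tgm3, the soluble transglutaminase of late differentiation, did not follow Tgm1. It was at 9.61 and 17.0 TPM in the Control samples and at 24.2, 15.1 and 8.60 TPM in the SIGLEC12 samples. The groups overlapped, and its log2 fold change of 0.19 ± 0.44 (SE) became -0.33 after rescaling.

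Krtdap, which encodes a secreted peptide of differentiating keratinocytes, did not separate the groups as deposited. It was at 91.7 and 98.1 TPM in the Control samples and at 69.9, 80.2 and 115 TPM in the SIGLEC12 samples, with a log2 fold change of -0.13 ± 0.29 (SE). After rescaling it was -0.68, with a 95% interval from -1.30 to -0.06, and the groups did not overlap, with a limma adjusted p of 0.457. Sbsn and Dmkn, which encode suprabasin and dermokine, lie beside Krtdap on chromosome 7. Sbsn was at 6.87 and 4.29 TPM in the Control samples and at 3.84, 3.75 and 2.92 TPM in the SIGLEC12 samples. Dmkn was at 44.1 and 16.9 TPM in the Control samples and at 16.5, 18.1 and 21.3 TPM in the SIGLEC12 samples. Sbsn was thus lower in all SIGLEC12 samples, by a log2 fold change of -0.53 ± 0.23 (SE) with a limma adjusted p of 0.154, while Dmkn as deposited overlapped between groups, with Control replicate 1 well above the rest, and after rescaling was lower in all SIGLEC12 samples. Without Control replicate 1 the log2 fold changes were -0.24 for Sbsn and 0.13 for Dmkn. Of the 31-base words of Sbsn, 14.0% also occurred in the overlapping gene Tmem147os, so its reads may in part belong to that gene.

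Cdsn, which encodes corneodesmosin, an adhesion protein of the outermost skin cells, was at 0.541 and 1.70 TPM in the Control samples and at 2.43, 2.73 and 2.21 TPM in the SIGLEC12 samples. All SIGLEC12 values lay above both Control values, with a log2 fold change of 0.76 ± 0.26 (SE) and a limma adjusted p of 0.109. After rescaling the groups overlapped and the fold change was 0.45. Without Control replicate 1 it was 0.36.

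Cnfn, encoding the envelope protein cornifelin, was at 32.9 and 16.6 TPM in the Control samples and at 23.8, 13.9 and 24.2 TPM in the SIGLEC12 samples. Lypd3, encoding a surface protein of stratified epithelium, was at 35.8 and 8.74 TPM in the Control samples and at 10.8, 7.28 and 7.98 TPM in the SIGLEC12 samples. Both were highest in Control replicate 1, and for Lypd3 the log2 fold change of -0.98 ± 0.54 (SE) was -0.02 without that sample. Of the 31-base words of Lypd3, 10.4% also occurred in Gm26550, an overlapping antisense gene, and whether the counting used strand is not stated.

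The plot of deviations sorts the 26 tested members by their value in Control replicate 1 and shows these behaviours together. The members highest in that sample were Sprr1a, Sprr1b, Sprr2d, Sprr2f, Krt10, Tgm1, Sbsn, Dmkn, Cnfn and Lypd3. The members lowest there were Sprr2a1, Sprr2a2, Sprr2a3, Sprr2h, Lor, Flg, Hrnr, Rptn, Crnn, Krt4 and Cdsn. Only Krt1, Krt13, Krtdap, Sprr3 and Tgm3 had neither extreme in that sample. Thus 21 of the 26 had an extreme there, as did 76.3% of all genes tested.

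**Figure D2:**
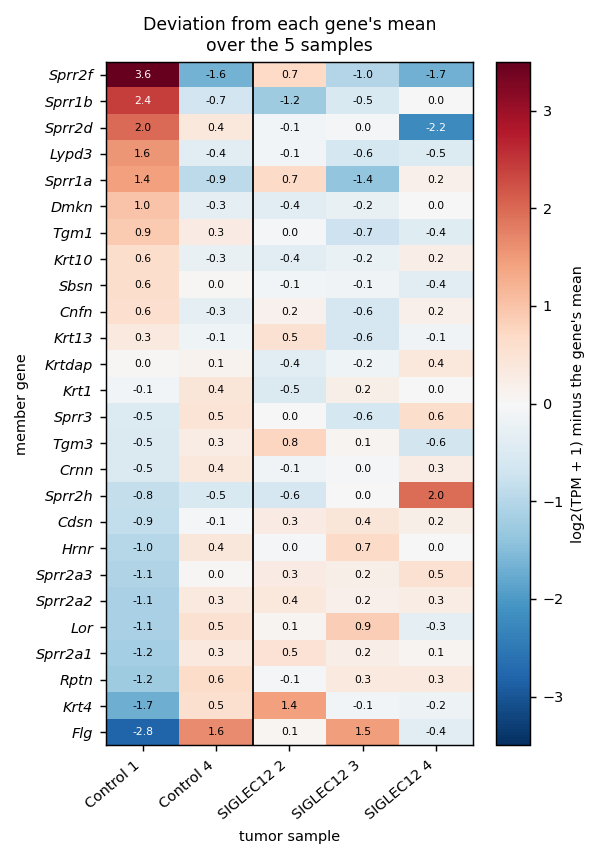
Deviation of each of the 26 tested members (rows) from its own mean over the 5 tumor samples (columns), in log2(TPM + 1), with red above and blue below the mean and the value printed in each cell. Rows are ordered by Control replicate 1, whose column holds the reddest cell (Sprr2f) and the bluest one (Flg), and the line divides Control from SIGLEC12.

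Tested across all genes, no member was called, which required a 2-fold change and a Benjamini-Hochberg adjusted p under 0.05. No gene of the whole table did so either (0% of 10338 in each direction), and the smallest adjusted p of any gene was 0.0974, although 3543 genes had an unadjusted p under 0.05, by limma, the tool used. With the p left unadjusted (0.05 or less) and the same 2-fold limit, 0 members were higher in SIGLEC12, against 3.97% of all genes tested, and 2 were lower, Tgm1 and Sprr2d, against 0.445%. After rescaling 0 members were higher, against 0.368%, and the same 2 members were lower, against 1.37%. Over all genes this threshold gave 410 higher and 46 lower as deposited and 38 higher and 142 lower after rescaling.

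Groups that did not overlap were counted as well. As deposited, 2 of the 26 members were higher in every SIGLEC12 sample, Cdsn and Sprr2a3, against 54.1% of all genes tested, and 3 were lower, Tgm1, Sprr2d and Sbsn, against 1.67%. After rescaling 0 were higher, against 15.6%, and 8 were lower, against 16.8%, namely Tgm1, Sprr2d, Sbsn, Krt1, Krt10, Krtdap, Dmkn and Lypd3. Because the members are partly a neighbouring gene family, they are not independent of each other.

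The median log2 fold change of the 26 members was -0.06 as deposited, with 13 above 0, against 0.38 over all genes tested, 87.2% of which were above 0. After rescaling it was -0.59, with 10 members above 0, against 0.01 over all genes, 51.1% of which were above 0. Without Control replicate 1 it was -0.12, against 0.26 over all genes. Under each of these 3 settings the median of the members lay below that of all genes, a difference that was not tested.

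**Figure D3:**
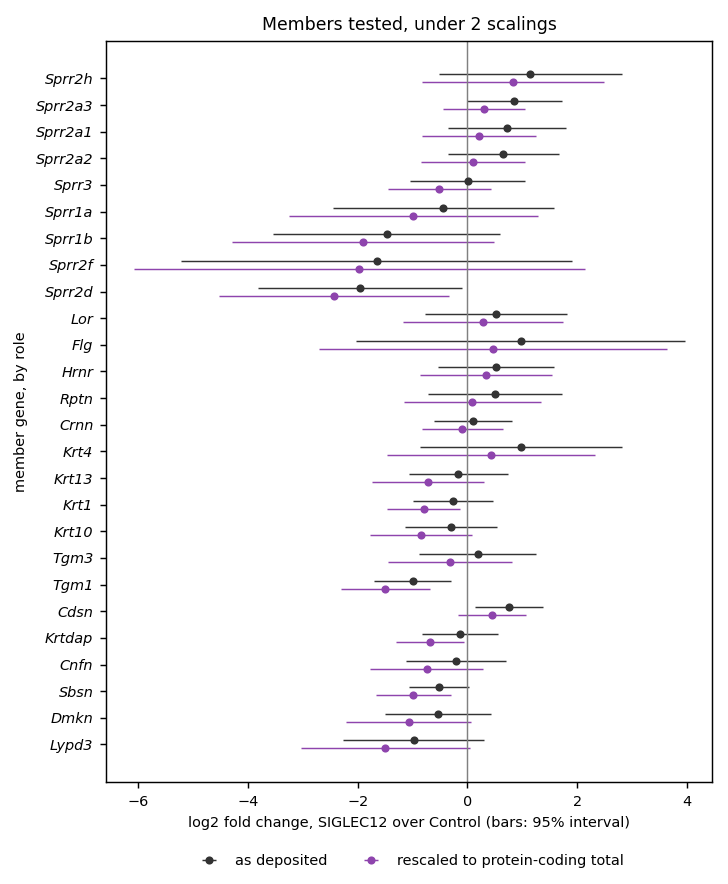
Log2 fold change, SIGLEC12 over Control, of the 26 tested members with 95% intervals from limma, as deposited (black) and after rescaling each sample to its protein-coding total (purple), grouped by role. As deposited the intervals of Tgm1, Sprr2d and Cdsn lie clear of 0. Rescaling moves every member to the left, so that the interval of Cdsn covers 0 and those of Tgm1, Sprr2d, Sbsn, Krt1 and Krtdap lie below it.

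How far each difference rests on 1 Control sample is shown by leaving each out. Without Control replicate 4, so that the 3 SIGLEC12 samples were set against Control replicate 1 alone, 11 members passed the adjusted threshold, with the lone sample assumed to vary like the others. They were Sprr1b, Sprr2f, Tgm1, Dmkn and Lypd3, lower in SIGLEC12, against 0.938% of all genes called lower, and Sprr2a1, Sprr2a2, Sprr2a3, Flg, Rptn and Cdsn, higher, against 9.31%. Without Control replicate 1 no gene of the table passed by limma (0%), members included, although 1630 genes had an unadjusted p under 0.05, and 17 of the 26 members changed the sign of their difference. Under all alternatives tried, 8 members kept their sign, namely Tgm1, Sprr2d, Sbsn, Lypd3 and Krt1 below 0 and Cdsn, Sprr2a3 and Sprr2h above it, with values that came close to 0 for Krt1 (-0.001) and Lypd3 (-0.02).

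**Figure D4:**
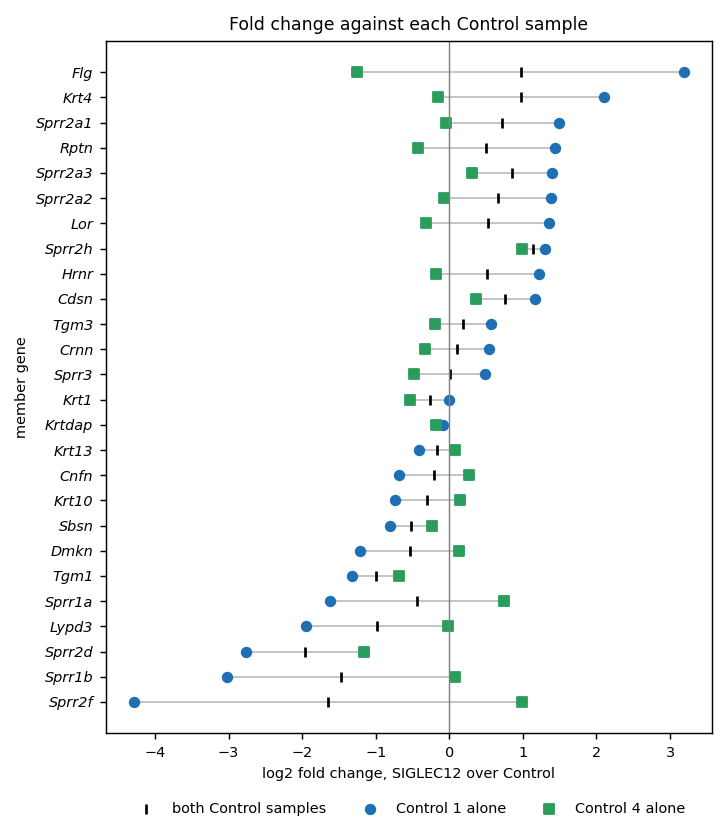
Log2 fold change of each tested member when the 3 SIGLEC12 samples are set against both Control samples (black bar), Control replicate 1 alone (blue circle) or Control replicate 4 alone (green square), joined by a grey line. Lines that cross 0, as for Flg (3.19 and -1.25) and Sprr2f (-4.29 and 0.98), mark members whose direction depends on which Control sample is used.

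Other genes of the same differentiation programme were read from lists that are not members. Of 10 basal and stress squamous keratins, 8 were tested, and all 8 had a log2 fold change below 0, where 87.2% of all genes were above 0. Of the 8, 7 were highest in Control replicate 1, against 5.58% of all genes, and the shared direction rested on that sample. Against Control replicate 4 alone, Krt14, Krt6b and Krt16 were higher in SIGLEC12 by mean log2 value. Krt5, Krt15, Krt6a, Krt17 and Krt80 were lower in that comparison. Krt14, the basal keratin, was at 1144 and 67.8 TPM in the Control samples and at 199, 50.8 and 92.4 TPM in the SIGLEC12 samples. Krt5, its partner, was at 595 and 108 TPM in the Control samples and at 142, 69.5 and 50.7 TPM in the SIGLEC12 samples. Krt6a, a keratin of stressed epithelium, was at 574 and 74.4 TPM in the Control samples and at 93.5, 34.1 and 66.7 TPM in the SIGLEC12 samples. None of the 8 passed the adjusted or the unadjusted threshold as deposited, and after rescaling 2 were lower at the unadjusted one, against 1.37% of all genes.

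**Figure D5:**
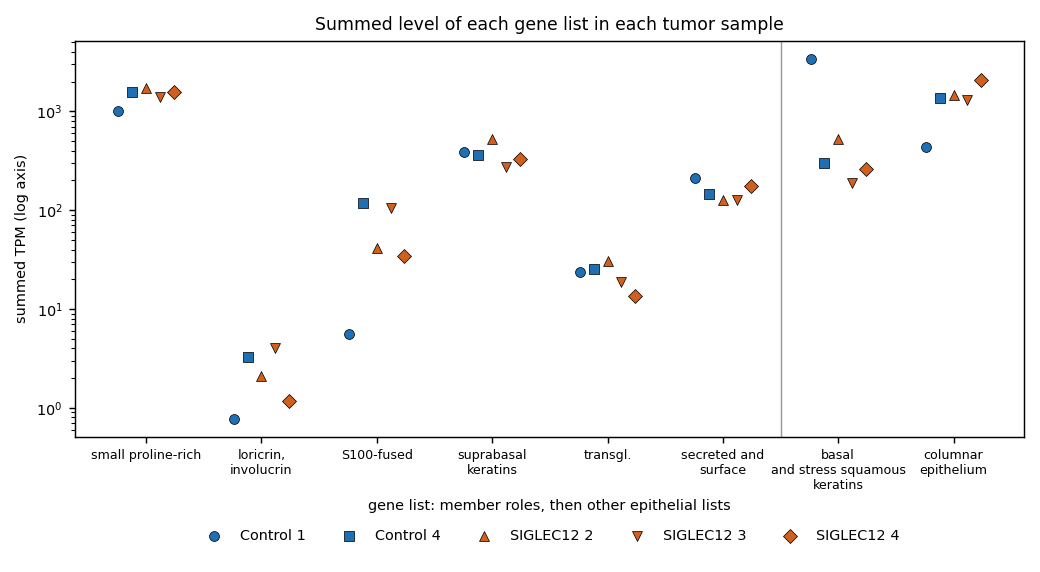
Summed TPM (log axis) of each role of the members, of the basal and stress squamous keratins and of the columnar epithelium markers in each tumor sample, with blue for Control and orange for SIGLEC12. Control replicate 1 is the lowest for the S100-fused genes (5.61 TPM) and the columnar markers (437 TPM) and the highest for the basal keratins (3405 TPM), while the suprabasal keratins lie between 272 and 524 TPM.

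Of 36 further genes of the epidermal differentiation complex, 20 were tested, and all 20 had a log2 fold change above 0 as deposited and 17 after rescaling, where 87.2% and 51.1% of all genes tested were above 0. At the unadjusted threshold 2 were higher as deposited, against 3.97% of all genes, and 0 after rescaling. Of the 20, 15 were lowest in Control replicate 1, as were 70.8% of all genes. The most abundant were S100 genes, which encode small calcium-binding proteins. S100a11 was at 186 and 179 TPM in the Control samples and at 248, 265 and 414 TPM in the SIGLEC12 samples. S100a16 was at 46.1 and 52.9 TPM in the Control samples and at 72.4, 73.1 and 133 TPM in the SIGLEC12 samples. S100a10 was at 26.7 and 74.5 TPM in the Control samples and at 89.2, 109 and 168 TPM in the SIGLEC12 samples. The late cornified envelope genes, 21 of the 36, were low throughout, and like Flg their sum was lowest in Control replicate 1. This subset was chosen after its values were seen. Summed, they were at 0.438 and 12.5 TPM in the Control samples and at 20.0, 34.6 and 11.32 TPM in the SIGLEC12 samples.

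Of 25 cornification enzymes, proteases, inhibitors and barrier lipid genes, 19 were tested. As deposited, 11 had a log2 fold change above 0 and 8 below, where 87.2% of all genes tested were above 0. At the unadjusted threshold 1 was higher, against 3.97% of all genes. After rescaling 7 were above 0 and 12 below, where 51.1% of all genes were above 0. At that threshold 0 were then higher, against 0.368% of all genes, and 2 were lower, against 1.37%. The gene past it as deposited was Il1rn, which encodes the interleukin 1 receptor antagonist, at 10.5 and 22.3 TPM in the Control samples and at 31.03, 32.6 and 47.0 TPM in the SIGLEC12 samples. Calml3, encoding a calmodulin-like protein of epithelium, was at 40.2 and 26.4 TPM in the Control samples and at 36.4, 20.3 and 17.4 TPM in the SIGLEC12 samples. Spink5, which encodes an inhibitor of the skin kallikreins, was at 32.6 and 8.67 TPM in the Control samples and at 14.4, 6.12 and 6.65 TPM in the SIGLEC12 samples. As deposited Il1rn alone of these 3 did not overlap between groups, with a log2 fold change of 1.19 that was 0.66 after rescaling.

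The 8 squamous desmosome genes were all tested, 7 with a log2 fold change below 0, and 7 were highest in Control replicate 1. These counts are to be read against the same shares of all genes (87.2% above 0 and 5.58% highest in that sample). The direction rested in part on that sample. Against Control replicate 4 alone, Perp, Pkp3, Dsg1a, Dsg1b and Dsc3 were higher in SIGLEC12 by mean log2 value, while Dsg3 and Pkp1 were lower. Perp, which encodes a desmosomal membrane protein, was at 202 and 50.5 TPM in the Control samples and at 81.1, 61.5 and 76.5 TPM in the SIGLEC12 samples. Pkp1, encoding plakophilin 1, was at 59.5 and 13.7 TPM in the Control samples and at 15.5, 9.03 and 13.6 TPM in the SIGLEC12 samples. Pkp3, encoding plakophilin 3, was at 16.7 and 9.94 TPM in the Control samples and at 11.8, 9.79 and 15.8 TPM in the SIGLEC12 samples.

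Of 16 squamous transcription factors 14 were tested, 10 of them with a log2 fold change below 0 and 9 of them highest in Control replicate 1, against those shares. Klf5, a regulator of epithelial proliferation, was at 25.0 and 49.8 TPM in the Control samples and at 65.3, 54.8 and 72.9 TPM in the SIGLEC12 samples. Klf4, a regulator of barrier formation, was at 29.3 and 27.1 TPM in the Control samples and at 29.7, 15.6 and 25.0 TPM in the SIGLEC12 samples. None of the genes in either list passed the unadjusted threshold as deposited, and after rescaling 2 of the desmosome genes and 4 of the transcription factors were lower at that threshold, against 1.37% of all genes.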

How the data were processed

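RNA was sequenced from colon tumors of 2 Control and 3 SIGLEC12 mice, grouped by the treatment label. The authors deposited 1 table of log2 values, which are log2(TPM + 1), as shown by the column sums. The submitters' processing notes name kallisto 0.45.0 and GRCm38, whereas the study's methods name a human reference. The labels name a total RNA kit and the methods an mRNA kit, and the methods name technical replicate libraries, which may be averaged in each column. TPM keeps no depth, so the depth per sample is unknown. Nothing names the numbered replicates of both groups as paired.

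All genes with at least 1 TPM in at least 2 samples were tested with limma 3.58.1 (lmFit, eBayes with trend) in R 4.3.3, two-sided, with Benjamini-Hochberg adjustment over 10338 genes. The p-values measure the spread between these samples, 1 tumor sample per mouse as far as the labels say. The step was tested on simulated data. The pseudocount of 1 understates changes of low genes. As alternatives the pseudocount was 0.1, the filter was dropped or raised to 5 TPM, and further runs used scaling by protein-coding total, quantiles or median ratios, array quality weights, or all but 1 sample. Sums, 31-base words (GENCODE M21 transcripts, both strands) and RefSeq upstream windows were computed with Python 3.11.15. Members and lists were chosen with earlier results of these data known. Named with values were members that reached 1 TPM in 1 sample or more and the 3 genes of highest mean TPM in each other list. A gene that this rule names is not reported here.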

Additional observations from a re-analysis of the deposited data

How the results depend on the processing

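No paired analysis was run, because nothing names samples of Control and SIGLEC12 as paired. With the groups compared at 2 against 3 samples, most directions rest on the Control samples. Genes called at the adjusted threshold numbered 0 in each direction as deposited and under every change of scaling, filter, pseudocount or weights, and leaving out 1 sample gave 0 to 962 higher and 0 to 97 lower, the upper ends without Control replicate 4.

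At the unadjusted threshold, 410 genes were higher and 46 lower as deposited. The higher count was 1087 with a pseudocount of 0.1, 38 with protein-coding scaling, 45 with quantile normalization and 68 with median-ratio size factors. The lower count was 142, 131 and 110 under those 3 scalings and 19 with the filter of 5 TPM. Leaving out 1 sample gave 143 to 1366 higher and 51 to 146 lower. Of members, 0 were higher and 2 lower as deposited, 1 and 1 with a pseudocount of 0.1, 1 lower with no filter, and 0 lower with array quality weights. Leaving out 1 sample gave 0 to 9 higher and 0 to 6 lower, the upper ends without Control replicate 4 and 0 lower without Control replicate 1 or SIGLEC12 replicate 4.

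The median log2 fold change of the members, -0.06 as deposited, was -0.59 with protein-coding scaling, -0.61 with quantile normalization and -0.49 with median-ratio size factors, and -0.22 to 0.24 with 1 sample left out. The log2 ratio of the summed small proline-rich genes, 0.29 as deposited, was -0.24 with protein-coding scaling and -0.13 with median-ratio size factors, and 0.016 to 0.63 with 1 sample left out.

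Rescaling turned the sign of Sprr3, Crnn and Tgm3. Protein-coding scaling gave -0.51 for Sprr3, -0.092 for Crnn and -0.33 for Tgm3. Quantile normalization gave -0.59, -0.19 and -0.37, and median-ratio size factors gave -0.41, -0.024 and -0.23. Array quality weights turned Sprr3 to -0.038 and Krt13 to 0.023. With 1 sample left out, the log2 fold change ran from -0.74 to 0.14 for Krt10, -0.46 to 0.094 for Krt13, -3.02 to 0.072 for Sprr1b, -0.48 to 0.48 for Sprr3, -1.62 to 0.75 for Sprr1a and -0.050 to 1.49 for Sprr2a1. It ran from -0.075 to 1.39 for Sprr2a2, -4.29 to 0.98 for Sprr2f, -0.31 to 1.36 for Lor, -0.16 to 2.10 for Krt4, -0.69 to 0.26 for Cnfn and -0.34 to 0.021 for Krtdap. For Dmkn it ran from -1.21 to 0.13, for Crnn from -0.34 to 0.54, for Flg from -1.25 to 3.19, for Hrnr from -0.18 to 1.21, for Rptn from -0.43 to 1.43 and for Tgm3 from -0.20 to 0.57. The cause of these changes was not tested. Adding up rows that share a symbol gave the values as deposited, because no member shares one.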
